A study of Mus musculus with 6 samples.

Results

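The 10 genes described here encode isozymes of phosphofructokinase (Pfkl, Pfkm, Pfkp), aldolase (Aldoa, Aldoc), enolase (Eno1, Eno2), pyruvate kinase (Pkm) and lactate dehydrogenase (Ldha, Ldhb). They were chosen by gene symbol in the table of neural stem cells (NSCs) grown at 21% O2, where 11 of the 53110 listed rows carry one of the 10 symbols, because Aldoa names 2 rows. All 10 genes had a mean of at least 10 normalized counts, as did 16266 genes in all. The cells were NSCs derived from the cortex of mouse embryos, with bFGF and EGF in the medium. They were routinely kept as neurospheres and were seeded as adherent cultures for RNA extraction. Wild-type (WT) cells were compared with cells heterozygous for a CRISPR-Cas9 mutation of Setd5 (Setd5+/-), a gene linked to chromatin regulation, and both genotypes were grown at the same oxygen level.

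Glycolysis turns glucose into pyruvate, and lactate dehydrogenase interconverts pyruvate and lactate. Several of its steps are catalysed by isozymes, enzymes of the same reaction made from separate genes, which differ in kinetics, regulation and tissue. Phosphofructokinase makes the committed step and has muscle (Pfkm), liver (Pfkl) and platelet (Pfkp) types. Aldoa is the widespread aldolase and Aldoc the brain type, Eno1 the widespread enolase and Eno2 the neuronal type, and Ldha and Ldhb are the subunits that mix into lactate dehydrogenase tetramers. Pkm gives the M1 and M2 pyruvate kinases by a choice between a pair of exons, which gene-level counts cannot separate.

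The labels list 3 samples of each genotype, but their files behaved as parts of 1 library. Within a genotype the read pairs of the parts differed by 0.958 to 0.981 chi-square units per degree of freedom, which is sampling noise, against 31.7 to 31.9 between genotypes. The column names also give the same index and lane to the 3 parts of a genotype, and different ones to the 2 genotypes, and name a single clone, A3, for the library taken here as Setd5+/-. Those names give no genotype for A3, and the clones that the study's text names are others, so the columns were matched to the Setd5+/- samples because the other columns are named as wild type and a supplementary table of the study heads the same values as heterozygous. Each genotype was therefore counted as 1 sample, so no test between genotypes was possible, the intervals below cover counting error only, and genotype, clone, culture and library cannot be told apart. The parts held 9995980 to 10004948 reads on genes in WT and 7143309 to 7146147 in Setd5+/-. Setd5 itself stood at 2676 normalized counts in the WT library and at 2065 in the mutant one, a change of −0.37 on the log2 scale (log2FC; 95% counting interval −0.44 to −0.30). The NSC markers Sox2 (3119 and 2732 normalized counts) and Nes (2378 and 1951) were present in both libraries. Of 4 microglial markers, Cx3cr1 and Ptprc were at 0 in both libraries and Aif1 was under the filter, with 0.83 and 4.37 normalized counts, while Csf1r went from 98.0 to 53.6, a log2FC of −0.85 (−1.25 to −0.45). The part of these markers in the results was not tested.

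Of the 10 genes, 5 were at least 1.5-fold lower in Setd5+/- NSCs (Pfkl, Aldoa, Eno1, Ldha and Ldhb) and 1 was at least 1.5-fold higher (Pfkp). Among all genes tested, 15.8% were lower and 19.6% higher by that rule. The remaining 4 genes lay between these limits, with Pfkm and Pkm on the lower side and Aldoc and Eno2 on the higher side. The median log2FC of the 10 genes was −0.61, and that of all genes tested was −0.02. At least 2-fold lower were 3 genes (Pfkl, Ldha and Ldhb), against 6.38% of all genes, and 1 (Pfkp) was at least 2-fold higher, against 10.3%. Counting either direction, 6 of the 10 and 35.4% of all genes passed 1.5-fold. limma's test with Benjamini-Hochberg adjustment, which here compares the reads of 2 libraries and not the genotypes, placed 7 of the 10 lower and 3 higher, and called 30.9% of all genes lower and 30.3% higher. Normalized counts of 7 genes in the Setd5+/- parts were all below those in the WT parts, which held for 32.9% of all genes, and those of 2 genes were all above, which held for 32.4%. Only Eno2 among the 10 had parts that overlapped between the libraries.

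**Figure D1:**
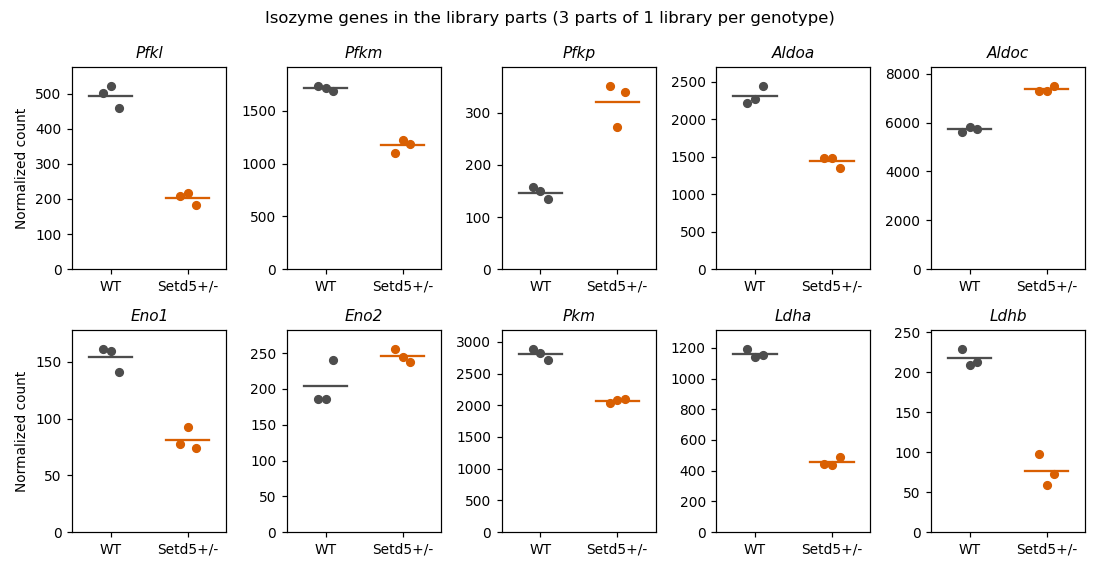
Normalized count (y axis, linear, from 0) of each isozyme gene in the parts of the WT library (grey) and of the Setd5+/- library (orange), with the line at the mean of the 3 parts. Pfkp and Aldoc lie higher and Pfkl, Pfkm, Aldoa, Eno1, Pkm, Ldha and Ldhb lower in every Setd5+/- part, while 1 WT part of Eno2, at 241, reaches the Setd5+/- range of 237 to 256.

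The 3 phosphofructokinase genes took different courses. Pfkl (ENSMUSG00000020277, chromosome 10 from 77986947 to 78010083, GRCm38) had 502, 522 and 459 normalized counts in the WT parts and 209, 218 and 182 in the Setd5+/- parts. The liver-type gene thus fell 2.43-fold, with a log2FC of −1.28 (−1.48 to −1.08), and its parts did not overlap. Pfkp (ENSMUSG00000021196, chromosome 13 from 6579768 to 6648777) had 157, 149.7 and 134 normalized counts in the WT parts and 352, 273 and 339.5 in Setd5+/-. The platelet-type gene thus rose 2.17-fold, with a log2FC of 1.12 (0.90 to 1.34). Pitrm1, which encodes a mitochondrial peptidase and overlaps Pfkp on the opposite strand, had 896 and 960.2 normalized counts, and how reads of the overlap were assigned is not given in the sources used here.

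Pfkm (ENSMUSG00000033065, chromosome 15 from 98092589 to 98132451) was the phosphofructokinase gene with the highest level per kilobase in both libraries. It had 1736, 1713 and 1685 normalized counts in the WT parts and 1102, 1228 and 1188 in Setd5+/-. Its log2FC of −0.55 (−0.63 to −0.46) was short of the 1.5-fold limit, which is 0.58 on the log2 scale. Scaling the libraries to their total reads on genes gave −0.59, and scaling to the upper quartile gave −0.63, both past it. Senp1, a SUMO protease gene on the opposite strand that overlaps Pfkm, had 449.5 and 368.5 normalized counts.

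Ratios between isozymes of a step need no scaling between libraries. The ratio of Pfkp to Pfkl normalized counts was 0.312, 0.287 and 0.292 in the WT parts and 1.69, 1.25 and 1.86 in the Setd5+/- parts. Pfkl thus had the larger count of the pair in WT and Pfkp in Setd5+/-, a 5.28-fold change of the ratio, or 2.40 on the log2 scale (2.10 to 2.70). The ratio of Pfkp to Pfkm rose 3.17-fold, from 0.0858 to 0.274, and the ratio of Pfkl to Pfkm changed by −0.74 on the log2 scale (−0.95 to −0.52), from 0.289 to 0.173. None of these 3 ratios overlapped between the parts of the libraries.

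Levels of different genes were compared per kilobase. They describe reads as assigned and not numbers of transcripts. The study's methods name Bowtie2 alignment to the mm10 genome and no separate step for reads across exon junctions. Any loss of such reads from the genes, or their placement on copies without introns, was not tested. The first scale was the length of all annotated exons. On that scale Pfkm made up 85.8% of the phosphofructokinase level in WT (95% counting interval 84.9% to 86.6%) and 86.6% in Setd5+/- (85.5% to 87.6%). Pfkl held 12.4% (11.6% to 13.2%) in WT and 7.50% (6.64% to 8.45%) in Setd5+/-. Pfkp went from 1.83% (1.63% to 2.07%) to 5.91% (5.34% to 6.54%). The Pfkp model has 13401 exon bases against 6675 for Pfkl and 3340 for Pfkm, while their coding lengths are 2352, 2340 and 2340 bases. Per kilobase of coding sequence, Pfkp accordingly held 6.21% in WT and 18.9% in Setd5+/-, and Pfkl 21.0% and 12.0%. The Pfkm share was 72.8% (71.4% to 74.1%) in WT and 69.2% (67.2% to 71.1%) in Setd5+/- on that scale, so its direction depended on the length used.

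**Figure D2:**
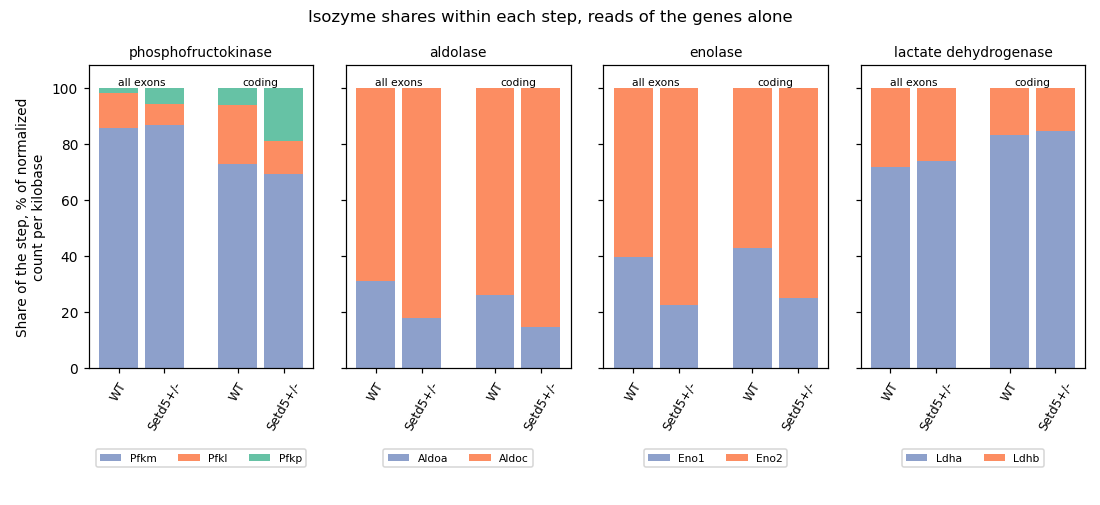
Share of each isozyme in its step (y axis, percent of the summed normalized count per kilobase) in WT and Setd5+/- NSCs, per kilobase of all annotated exons (left pair of bars in each panel) and of coding sequence (right pair), from reads of the genes alone. The Aldoc share is 68.9% in WT and 82.0% in Setd5+/- over all exons, and the Pfkp share is larger in Setd5+/- on both length scales.

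Aldolase differed between its isozymes as well. Aldoc (ENSMUSG00000017390, chromosome 11 from 78322968 to 78327781), the brain-type gene, had 5635, 5814 and 5741 normalized counts in the WT parts and 7301, 7306 and 7505 in Setd5+/-. Every Setd5+/- part was above every WT part, but the log2FC of 0.36 (0.32 to 0.40) was short of 1.5-fold. Aldoa (ENSMUSG00000030695, chromosome 7 from 126795234 to 126800751) had 2217, 2267 and 2446 normalized counts in the WT parts and 1485, 1489.8 and 1345 in Setd5+/-. It fell 1.60-fold, with a log2FC of −0.68 (−0.76 to −0.60). The other row named Aldoa is ENSMUSG00000114515, chromosome 7 from 126800790 to 126809108. It held 12.4, 11.6 and 9.11 normalized counts in the WT parts and 28.6, 36.9 and 22.6 in Setd5+/-. Its log2FC of 1.32 (0.54 to 2.09) was past 1.5-fold higher, opposite in direction to the first row. The row with more reads was taken for Aldoa, so this row is not counted among the 10 genes.

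The ratio of Aldoc to Aldoa normalized counts was 2.54, 2.56 and 2.35 in the WT parts and 4.92, 4.90 and 5.58 in the Setd5+/- parts. It rose 2.06-fold, or by 1.05 on the log2 scale (0.96 to 1.13). Per kilobase of exon, Aldoc held 68.9% of the aldolase level in WT (68.1% to 69.6%) and 82.0% in Setd5+/- (81.3% to 82.8%). Aldoc is also known as an astrocyte gene, and 6 astrocyte markers moved apart: Gfap, Aqp4 and S100b were at least 1.5-fold higher, Aldh1l1 and Slc1a2 at least 1.5-fold lower, and Gja1 between. Gfap, the intermediate filament of astrocytes, went from 17.1 to 263 normalized counts, and Slc1a2, a glutamate transporter, from 4678 to 1225. The summed astrocyte markers ranged from 7091 to 7212 normalized counts over the WT parts and from 3905 to 4190 over the Setd5+/- parts, none was at 0, and their part in the aldolase balance was not tested. In these bulk samples fewer cells of a type and less RNA per cell cannot be told apart.

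The enolase genes were low by their own reads. Eno1 (ENSMUSG00000063524, chromosome 4 from 150236721 to 150248879) had 162, 159.7 and 141 normalized counts in the WT parts and 77.5, 92.9 and 73.9 in Setd5+/-. It fell 1.89-fold, with a log2FC of −0.92 (−1.24 to −0.59). Eno2 (ENSMUSG00000004267, chromosome 6 from 124760053 to 124769673), the neuron-specific enolase, had 187, 186 and 241 normalized counts in the WT parts and 256, 244 and 237 in Setd5+/-. Its parts overlapped, and the log2FC was 0.27 (0.06 to 0.49).

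The ratio of Eno2 to Eno1 was 1.15, 1.17 and 1.71 in the WT parts and 3.31, 2.63 and 3.21 in the Setd5+/- parts. It thus rose 2.28-fold, or by 1.19 on the log2 scale (0.80 to 1.58). Of the neuronal markers, 5 of the 6 tested were at least 1.5-fold lower and none higher, with a median log2FC of −2.36. Dcx, a microtubule protein of young neurons, went from 248 to 26.2 normalized counts, and Gad1, an enzyme of GABA synthesis, from 748 to 96.1. The 8 neuronal markers summed to 1292 to 1384 normalized counts in the WT parts and 258 to 286 in the Setd5+/- parts. The neuronal marker Rbfox3 was at 0 in the Setd5+/- library. The part of these markers in the enolase balance was not tested.

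Both lactate dehydrogenase genes fell, and by similar amounts. Ldha (ENSMUSG00000063229, chromosome 7 from 46841475 to 46855627) had 1194, 1140.0 and 1154 normalized counts in the WT parts and 445, 439 and 486 in Setd5+/-. It fell 2.55-fold, with a log2FC of −1.35 (−1.48 to −1.22). Ldhb (ENSMUSG00000030246, chromosome 6 from 142490249 to 142507957) had 229.7, 209 and 214 normalized counts in the WT parts and 97.7, 59.5 and 72.7 in Setd5+/-, which do not overlap. The ratio of Ldhb to Ldha was 0.192, 0.184 and 0.185 in WT and 0.220, 0.136 and 0.149 in Setd5+/-, so that the parts overlapped. The change of the ratio was −0.17 on the log2 scale, with an interval of −0.52 to 0.17 that includes 0 and allows a shift in either direction. Per kilobase of exon, Ldhb held 28.3% (26.2% to 30.5%) in WT and 26.1% (22.2% to 30.4%) in Setd5+/-.

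Pkm (ENSMUSG00000032294, chromosome 9 from 59656368 to 59679375) has no second isozyme gene among the 10. It had 2892, 2816 and 2711 normalized counts in the WT parts and 2028.5, 2083 and 2106 in Setd5+/-. The parts did not overlap, and the log2FC of −0.44 (−0.50 to −0.37) was short of 1.5-fold. The annotated locus Gm49759, of no assigned type, which overlaps Pkm on the same strand, had 557 and 455 normalized counts.

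Ordered by level per kilobase of exon in WT, the genes were Aldoc (1756 normalized counts per kilobase), Aldoa (793.5), Pkm (561), Pfkm (512), Ldha (351), Ldhb (139), Pfkl (74.0), Eno2 (43.5), Eno1 (28.6) and Pfkp (11.0). No neighbours in this order overlapped between the parts of the WT library. In Setd5+/- the order began with the same 5 genes, from Aldoc (2259) to Ldha (138). Eno2 (52.2) and Ldhb (48.8) came next and overlapped, followed by Pfkl (30.4), Pfkp (24.0) and Eno1 (15.1), which did not. This order is from reads of the genes alone. In WT, near-identical copies elsewhere in the genome took 57.8% of the sum of gene and copies for Pkm, 78.4% for Ldhb and 83.3% for Eno1. With copies, Pkm stood at 1330 normalized counts per kilobase of exon in WT, so the places of these genes depend on which reads are taken. The order also depended on the length used. Per kilobase of coding sequence Ldha (1074) was above Pfkm (731.5) in WT, and Aldoa and Pkm overlapped there, as did Ldhb and Pfkl. In Setd5+/- Pkm (1301) was above Aldoa (1148) on that scale, and Pfkp (137) above Pfkl (86.7).

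Summed over the isozymes of a step, normalized counts went from 2353 to 1697 for phosphofructokinase, from 8039.8 to 8811 for aldolase, from 359 to 327 for enolase, from 2806 to 2072 for Pkm and from 1380.4 to 533 for lactate dehydrogenase. The last is the step with the largest log2 change of the 5, at −1.37. These sums mix genes of different lengths, and per kilobase of exon the changes were −0.56, 0.11, −0.10, −0.44 and −1.39 on the log2 scale in the same order of steps. With reads on near-identical copies elsewhere in the genome counted in, the log2 change of the enolase sum was −0.79, from 1129 to 652 normalized counts. It was 0.10 for aldolase, −0.28 for Pkm and −1.39 for lactate dehydrogenase, whose sum went from 2605 to 997.

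Reads of 5 of the genes can also fall on near-identical copies elsewhere in the genome, most of them processed pseudogenes, which are reverse-transcribed copies without introns. A copy was counted where an annotated transcript matched at least 50% of the gene's transcript at 90% identity or more, and 21 such copies were in the table. Pkm, Ldhb and Eno1 had fewer normalized counts on the gene than on its copies in WT. Pfkl, Pfkm, Pfkp, Aldoc and Eno2 had no copy. The copies with the most reads for Pkm and Ldhb are shown here over the exon junction nearest to the middle of the coding sequence, with the bases that differ between gene and copy in capitals. The junction lies after base 50 of the 100 bases in each gene, where the genome holds an intron of 837 bases in Pkm and 2763 bases in Ldhb, and the copies hold none.
Pkm, chr9:59670688-59670737 and chr9:59671575-59671624, plus strand: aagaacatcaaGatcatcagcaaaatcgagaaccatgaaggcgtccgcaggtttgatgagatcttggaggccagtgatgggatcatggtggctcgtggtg
Gm6560, chr5:22725284-22725383, minus strand: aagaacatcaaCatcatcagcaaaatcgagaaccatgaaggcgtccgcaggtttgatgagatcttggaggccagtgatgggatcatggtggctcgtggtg
Ldhb, chr6:142498505-142498554 and chr6:142495692-142495741, minus strand: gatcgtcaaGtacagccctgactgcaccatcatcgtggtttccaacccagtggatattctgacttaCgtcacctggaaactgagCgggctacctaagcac
Gm5514, chr19:21937751-21937850, plus strand: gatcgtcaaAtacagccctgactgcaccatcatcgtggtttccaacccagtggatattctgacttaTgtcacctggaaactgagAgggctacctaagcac
Pkm and its copy differ at 1 of these 100 positions, and Ldhb and its copy at 3. These are coding bases of the GENCODE M21 models on GRCm38. In the stretch of 167 bases where M1 and M2 messages differ, Gm6560 had 12 differences from the exon at chr9:59675568-59675734, which is the M2 exon, and 71 from the M1 exon at chr9:59675029-59675195.

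Gm6560 had 3808, 3799.8 and 3908 normalized counts in the WT parts and 3396, 3337 and 3428 in Setd5+/-, more than Pkm in every part. With 98.4% identity over 65.5% of the Pkm transcript, its log2FC was −0.18 (−0.23 to −0.13). Over all Pkm copies the change was −0.18, against −0.44 for the gene, a difference of −0.26 (−0.34 to −0.17). Gene and copies summed to 6652 in WT and 5465 in the mutant, a change of −0.28 on the log2 scale (−0.33 to −0.24), so the size of the Pkm difference depends on which reads are taken.

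Gm5514 had 815, 778 and 772 normalized counts in the WT parts and 259, 262 and 273 in Setd5+/-, and changed by −1.57 on the log2 scale (−1.74 to −1.40). With it, Ldhb changed by −1.56 (−1.71 to −1.41), close to the −1.52 of the gene alone, and copies took 78.4% of the sum in WT. Eno1b, annotated as protein-coding and matching Eno1 at 99.5% identity, had 741, 774 and 743 normalized counts in the WT parts and 327, 322 and 309 in Setd5+/-. With copies, which took 83.3% of the sum in WT, Eno1 changed by −1.19 (−1.33 to −1.05), against −0.92 for the gene alone. Copies took 27.3% of the Ldha sum and 14.6% of the Aldoa sum in WT, and the summed changes were −1.28 (−1.39 to −1.17) and −0.68 (−0.75 to −0.60). Of the 10 genes 5 were again at least 1.5-fold lower and 1 higher when copies were added. Whether a read on a copy came from the copy or from the gene cannot be told apart in this table.

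**Figure D3:**
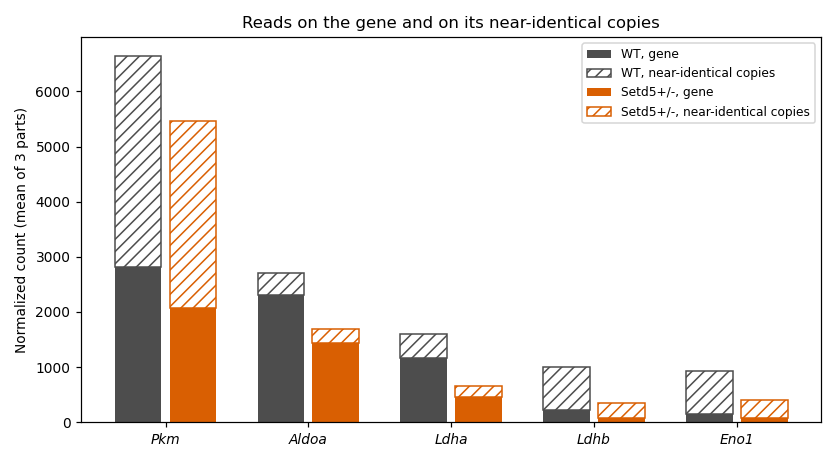
Normalized count (y axis, mean of the 3 parts of a library) on the gene (filled) and on its near-identical copies (hatched, stacked) for the 5 genes that have copies, in WT (grey) and Setd5+/- (orange). Copies hold more than the gene for Pkm, Ldhb and Eno1, and gene and copies are both lower in Setd5+/-.

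Adding copies changed the isozyme shares more than the direction of the balances. Within the sum of Eno1 and Eno2 per kilobase of exon, Eno2 held 60.3% in WT by reads of the genes alone. With the Eno1 copies it held 20.2%. In Setd5+/- these shares were 77.5% and 40.9%. Eno3, with 34.9 normalized counts per kilobase of exon in WT and 33.3 in Setd5+/-, is not in these shares. The ratio of Eno2 to Eno1 still rose, by 1.46 on the log2 scale (1.203 to 1.72). Ldhb held 57.0% of the lactate dehydrogenase level in WT and 52.3% in Setd5+/- with copies, against 28.3% and 26.1% without. With copies the ratio of Ldhb to Ldha changed by −0.27 (−0.46 to −0.09), an interval that no longer includes 0. The aldolase ratio changed by 1.04 (0.96 to 1.12).

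**Figure D4:**
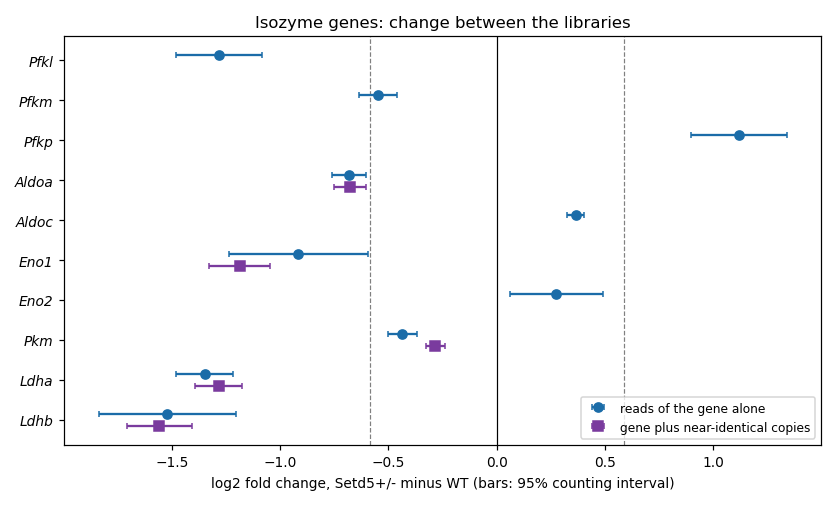
Log2FC of Setd5+/- minus WT (x axis) for the 10 isozyme genes, from reads of the gene alone (circles) and from gene plus near-identical copies (squares, for the 5 genes with copies), with 95% counting intervals. Dashed lines mark 1.5-fold, and Pfkp at 1.12 is the only gene beyond the upper line.

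Eno4 and the other isozymes of the pyruvate kinase and lactate dehydrogenase steps were scarce, but Eno3 was not low against Eno1. By reads of the genes alone, mean levels per kilobase of exon were 34.9 for Eno3 and 28.6 for Eno1 in WT. The Setd5+/- library gave 33.3 for Eno3 and 15.1 for Eno1. Of Eno3, Eno4, Pklr, Ldhc and Ldhal6b, 1 gene passed the filter on low values, the muscle enolase Eno3, at 60.7 normalized counts in WT and 58.0 in Setd5+/-. Ldhc, the testis lactate dehydrogenase, was at 0 in both libraries. Of 9 genes of other glycolytic steps, 7 passed the filter, and 6 of these were at least 1.5-fold lower and none higher, with a median log2FC of −0.63. Gpi1, the isomerase just before phosphofructokinase, went from 1539.9 to 663 normalized counts, a log2FC of −1.22 (−1.33 to −1.11). Tpi1, which interconverts the products of aldolase, changed by −0.61 (−0.74 to −0.49), from 879.6 to 576. Gapdh, with 165 and 71.1 normalized counts, Pgk1, with 129 and 78.2, Bpgm and Gapdhs were the other 4 below the limit, and reads on copies of these genes were not summed.

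Among 7 regulators of phosphofructokinase and its reverse step, 1 was at least 1.5-fold higher and none lower. This was Pfkfb3, whose enzyme makes fructose 2,6-bisphosphate, an activator of phosphofructokinase, at 185 and 528 normalized counts, with a log2FC of 1.51 (1.33 to 1.70). Tigar, which degrades that activator, had 189.6 and 136, and Pfkfb2 413 and 557. The 4 splicing factors known for the choice of Pkm exon, Ptbp1, Hnrnpa1, Hnrnpa2b1 and Srsf3, all lay within 1.5-fold, with log2FC values from −0.23 to −0.11. Hexokinases Hk1 (916 and 882 normalized counts) and Hk2 (63.2 and 57.6) also lay within it.

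Of the 6 hexokinase and transporter genes, 1 was at least 1.5-fold lower and 1 higher, both of them glucose transporters. Slc2a1 went from 382 to 199.8 normalized counts, a log2FC of −0.95 (−1.16 to −0.75). Slc2a3, the neuronal type, went from 103 to 319, a log2FC of 1.65 (1.40 to 1.89). The lactate transporters Slc16a1 (550.2 and 592) and Slc16a3 (16.6 and 11.9) lay within 1.5-fold. Of the transcription factors known at glycolytic promoters, Myc went from 919 to 224 normalized counts (log2FC −2.03, interval −2.21 to −1.85). It was the only 1 of the 4 tested that passed 1.5-fold. Hif1a had 2372 and 2380.2, Arnt 498 and 544, and Epas1 201 and 161, while Mycn was under the filter with 0.55 and 11.9. Other marker lists differed too. Of 6 markers of the oligodendrocyte lineage 4 were at least 1.5-fold lower and none higher, among them Sox10, from 298 to 1.59 normalized counts, and the list summed to 40197 to 41063 in the WT parts and 22247.5 to 23073 in the Setd5+/- parts. Of the 10 NSC markers 1, Fabp7, was lower and 2, Vim and Notch1, were higher. Proliferation markers, which were all within 1.5-fold, summed to 4565 to 4734 normalized counts in the WT parts and 5799 to 5989 in the Setd5+/- parts. They did not move as one, since Mki67, Top2a and Ccnb1 were higher and Mcm2 was lower, from 767 to 579. The part of any of these lists in the isozyme values was not tested.

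**Figure D5:**
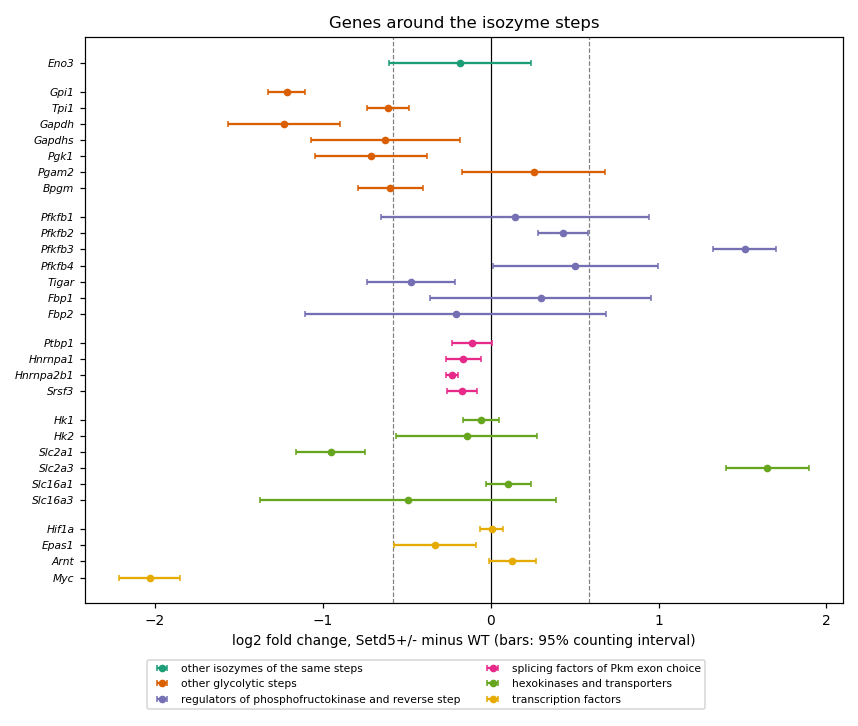
Log2FC of Setd5+/- minus WT (x axis) with 95% counting intervals for the genes around the isozyme steps that passed the filter on low values, coloured by list. Dashed lines mark 1.5-fold, and Pfkfb3 and Slc2a3 lie beyond the upper line while Gpi1, Tpi1, Gapdh, Gapdhs, Pgk1, Bpgm, Slc2a1 and Myc lie beyond the lower one.

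The 250 bases before the start in RefSeq (GRCm38.p6) are shown for Ldha and Ldhb, which fell, and Pfkp, which rose. Matches are in capitals. The letters searched on both strands were ACGTG and GCGTG, the core letters of hypoxia response elements, and GGGCGG, the core of the GC box. In the Pfkp window a GCGTG match and a GGGCGG match share a base. ACGTG also lies inside CACGTG, the E-box that Myc proteins bind, and matches it on both strands.
Ldha, chr7:46845554-46845803, plus strand: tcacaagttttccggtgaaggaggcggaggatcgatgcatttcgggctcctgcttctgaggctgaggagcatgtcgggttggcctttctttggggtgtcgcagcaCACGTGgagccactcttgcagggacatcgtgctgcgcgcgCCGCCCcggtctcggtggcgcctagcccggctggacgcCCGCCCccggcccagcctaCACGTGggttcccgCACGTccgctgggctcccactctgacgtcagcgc
Ldhb, chr6:142507958-142508207, minus strand: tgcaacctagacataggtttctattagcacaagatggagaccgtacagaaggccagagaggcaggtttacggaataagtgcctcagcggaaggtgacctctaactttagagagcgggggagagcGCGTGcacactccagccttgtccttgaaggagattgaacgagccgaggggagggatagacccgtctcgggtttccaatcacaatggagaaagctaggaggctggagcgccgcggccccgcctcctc
Pfkp, chr13:6648772-6649021, minus strand: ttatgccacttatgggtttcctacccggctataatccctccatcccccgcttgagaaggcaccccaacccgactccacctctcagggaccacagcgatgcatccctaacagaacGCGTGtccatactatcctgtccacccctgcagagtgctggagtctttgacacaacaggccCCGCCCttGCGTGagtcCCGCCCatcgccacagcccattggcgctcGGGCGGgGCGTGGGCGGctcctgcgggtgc
The Ldha window held 5 matches to ACGTG, which come from 2 copies of CACGTG and 1 further match, and 2 to GGGCGG. The Ldhb window held 1 match to GCGTG and the Pfkp window held 3, beside 4 to GGGCGG. The window of Pfkl, which also fell, is not shown and held 1 match to GCGTG and 0 to ACGTG and GGGCGG. Of all 32851 windows of this length, 16.6% held ACGTG, 28.2% GCGTG, 6.02% CACGTG and 32.7% GGGCGG. In the first window of each of the 10 genes, ACGTG was found for 2 genes, GCGTG for 5, CACGTG for 2 (Ldha and Pfkm) and GGGCGG for 4. Over all 20 windows of these genes, the counts of genes with a match in any window were 4, 7, 2 and 6. Several genes have more than 1 window, so these last counts cannot be set against the shares per window. The matches describe these letters only.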

How the data were processed

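Per the labels and the study's methods, RNA of NSCs grown at 21% O2 was sequenced from both ends, trimmed with Trimmomatic, aligned to mm10 with Bowtie2 and tested with DESeq2. The program that counted reads, and whether it used strand, are not given in the sources used here. The authors deposited counts divided by size factors (normalized counts), with decimal points lost, beside 5 columns of their own DESeq2 comparison (log2 fold change, its error, statistic and p-values), which were not used. All 6 value columns were used.

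Each point was placed so that the value gave whole reads. The deposited mean decided 1117 genes and was met in 52438 of 52438 genes with values. The variance of reads within a genotype was 1.95 times the mean in WT and 1.94 in Setd5+/-, and 75.1% of low values were even, so both mates appear to be counted. Counting intervals (95%) use that variance. They cover counting error only.

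Fold changes are differences of mean log2(normalized count + 1) over genes with a mean of at least 10, by limma 3.58.1 in R 4.3.3, which was tested on simulated data. The pseudocount understates changes of low genes. Called means at least 1.5-fold. Lengths and copies come from GENCODE M21 (GRCm38) and blastn 2.17.0, and promoters from RefSeq, where all 10 genes matched by symbol. All 10 genes are named, and genes of the pathway lists were named where they passed 1.5-fold or bear on a result. Marker lists are given by counts, with only some of their genes past 1.5-fold named. The members, lists and tests were chosen with earlier results of these data known. Same-numbered parts did not deviate together (correlations from −0.007 to 0.005), so no block was used. Alternatives are given in the closing section.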

Additional observations from a re-analysis of the deposited data

How the results depend on the processing

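No log2 fold change and no isozyme ratio of the 10 genes changed sign under any alternative run. The Pfkm share did, since it was higher in Setd5+/- per exon length (85.8% and 86.6%) and lower per coding length (72.8% and 69.2%) and with no length scaling (72.8% and 69.1%). Of all genes tested, 2577 were lower and 3185 higher by 1.5-fold. With no filter on low values these counts were 4888 and 6266, with a fold of 2 they were 1037 and 1680, and by limma's adjusted p on the reads 5028 and 4935. Of the 10 isozyme genes, 3 were lower by a fold of 2, and limma placed 3 higher in place of 1. With the replicate number as a block in the fit, which the sources do not describe as a pairing, limma called 5012 lower and 4934 higher and again 3 of the 10 higher, and the block left 5 lower and 1 higher by 1.5-fold. Scaling to total reads and to the upper quartile put the median of all genes at −0.06 and −0.10 and added Pfkm to the lower genes, making 6. Of all genes these scalings gave 2795 lower and 2987 higher, and 3111 lower and 2785 higher, so the excess of higher genes turned around under the second.

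Shares within a step depended on length and copies. In WT and then Setd5+/-, Pfkl held 21.0% and 12.0% per coding length and 21.0% and 12.0% with no length scaling, and Pfkp 6.21% and 18.9%, then 6.24% and 18.9%. Aldoc held 74.1% and 85.5% per coding length, 71.3% and 83.7% unscaled, and 65.4% and 79.5% with near-identical copies, an alternative chosen after seeing the data. Ldhb held 16.8% and 15.4%, then 15.8% and 14.4%, and 57.0% and 52.3% with copies. Eno2 held 20.2% and 40.9% with copies.

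Leaving out each part in turn gave 2548 to 2657 lower and 3147 to 3270 higher genes, and 5 lower and 1 higher among the 10 each time. The change of the ratio of Ldhb to Ldha was −0.38 without the first Setd5+/- part, −0.04 without the second and −0.10 without the third, against −0.17 with all parts. The parts are not replicates, so nothing here measures how clones or cultures differ, and depth limits Eno1, Ldhb and Pfkp most.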
